A study of Mus musculus with 11 samples.

Results

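Of 59298 regions of open chromatin found in mouse dentate gyrus, 1395 (2.35%) recurred in most libraries while lying far from any region that was open in every library. They are called remote recurrent regions here. Each was called in 7 to 10 of 11 ATAC-seq libraries, and no region called in all 11 (a constitutive region) lay within 250 kb on either side, measured edge to edge. Each list was first shortened to its 25145 highest-scoring peaks on chromosomes 1 to 19 and X, and peaks overlapping by 1 bp or more, whatever their list, were joined into regions. The regions were thus chosen by their calls in these 11 libraries and by their distance from constitutive regions, so neither is a finding. Altogether 8414 regions were called in 7 to 10 libraries, so that the remote ones made up 16.6% of them. The other 7019 recurrent regions lay within 250 kb of a constitutive region and serve as the comparison throughout.

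ATAC-seq reads accessible DNA by letting a transposase insert adapters wherever chromatin leaves room, and peaks mark where insertions pile up. Regions that are open in all samples of a tissue are largely promoters of broadly active genes and sites bound by architectural proteins. Distal elements such as enhancers are open in fewer cells or states, and in neurons many of them respond to activity. The dentate gyrus is the hippocampal field of granule neurons, and c-Fos is a subunit of AP-1, a transcription factor whose gene is induced rapidly by neuronal activity.

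The tissue came from C57BL/6 mice 8 weeks old, and every mouse, controls included, had received an adeno-associated virus with an shRNA. The groups were a control shRNA at E0 (shRNA-Ctrl E0, 3 libraries) and at E1 (shRNA-Ctrl E1, 3), and an shRNA against c-Fos at E0 (shRNA-cFos E0, 3) and at E1 (shRNA-cFos E1, 2). The study asked how neuronal activation alters accessibility. Names of the deposited E0 lists call that state sham, while the stimulus and its timing behind E1 are not given in the sources used here. Each library was made from 1 mouse, per the labels. Which cells the virus reached and how far c-Fos was reduced cannot be read from peak lists, and in bulk tissue fewer cells with an open region cannot be told apart from less opening per cell. No annotation of build mm9 was at hand, so the regions are given by position only, and the labelled tissue could not be checked against marker genes.

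The deposited lists held 25145 to 78349 peaks on chromosomes 1 to 19 and X, and read depth is unknown. The 3 longest, with 74432 to 78349 peaks, were shRNA-Ctrl E1 replicates 1 and 3 and shRNA-cFos E0 replicate 2. The names of the first 2 lack a word that the other 9 list names carry, and what it marks is not stated. Peaks with identical ends made up at most 0.0317% of the shorter list in any pair of lists, so no list repeated another. A score percentile below is the share of a library's 25145 kept peaks that score no higher than the peak in question. It ranks peaks within a list and is not a measure of how open a region is.

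Beyond 250 kb from constitutive chromatin, all classes of region were sparser, and recurrent regions more so than regions seen once. Between neighbouring constitutive regions, recurrent regions numbered 5.15 per Mb at 10 to 50 kb from the nearest of them. The density was 3.17 per Mb at 100 to 250 kb, 2.18 at 250 to 500 kb, 1.35 at 500 to 1000 kb and 0.774 beyond that. Regions called in 1 library went from 10.4 per Mb at 10 to 50 kb to 2.71 per Mb beyond 1000 kb. As a share of all regions at a given distance, recurrent ones made up 18.8% at 10 to 50 kb and 12.9% beyond 1000 kb. These lengths include any sequence in which reads could not be placed.

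**Figure D1:**
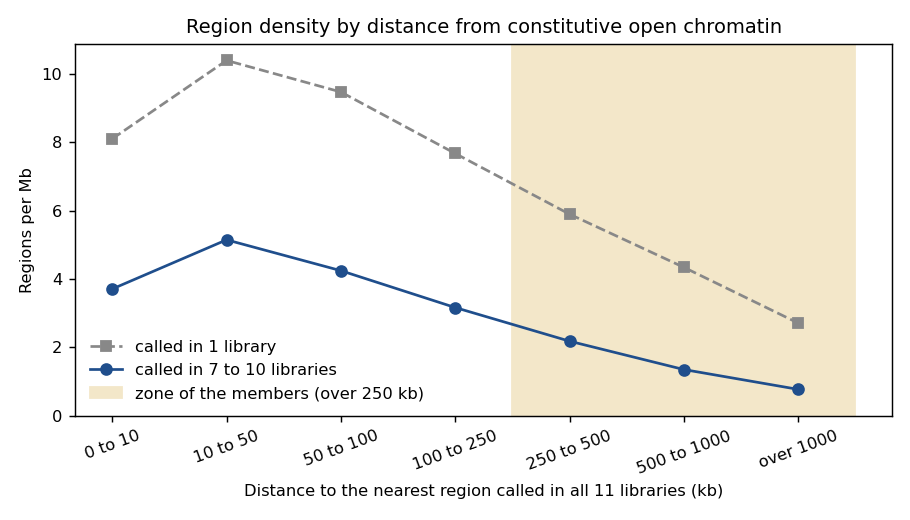
Regions per Mb (vertical axis) called in 7 to 10 libraries (circles) and in 1 library (squares), by distance in kb from the nearest region called in all 11 libraries, with the zone of the remote recurrent regions shaded. Recurrent regions go from 5.15 per Mb at 10 to 50 kb to 0.774 per Mb beyond 1000 kb.

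The remote recurrent regions lay a median of 405 kb from the nearest constitutive region, with quartiles of 313 and 601 kb. More than 500 kb separated 496 of them (35.6%) from any constitutive region, and more than 1000 kb separated 113 (8.1%). At the limit, chr2:19830912-19832015 (250.2 kb) and chr1:15528884-15529667 (250.5 kb) were the nearest inside. Just outside, at a distance that rounds to 250 kb, were chr8:84520546-84521304 and chr18:73342456-73343058. By number of calls, 367 were called in 7 libraries, 334 in 8, 318 in 9 and 376 in 10.

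Of 9696 intervals between neighbouring constitutive regions, 1286 were longer than 500 kb and could hold such a region. Remote recurrent regions were found in 654 of them, a single one in 332 and 5 or more in 50, while 632 held none. The intervals that held one had a median length of 1122 kb and the empty ones 686 kb. Another 11 lay between the outermost constitutive region and the end of a chromosome. Clustering was loose: the median gap to the next remote recurrent region was 187 kb, and 79 of the 1395 had another within 10 kb. Regions of other kinds were nearer, with a median gap of 17.1 kb and a median of 9 other regions of any kind within 250 kb. Only 19 had no other region within that distance.

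By chromosome, the share of recurrent regions that were remote ran from 10.6% on chromosome 18 (42 of 396) to 37.7% on chromosome X (98 of 260). The next highest was chromosome 16, with 23.0% (55 of 239). On X, 39 of the 98 lay in a single interval that is described below, and without it the share was 27.8%. Counted per Mb of sequence beyond 250 kb, chromosome 10 held most, 2.74 per Mb, and chromosome 7 fewest, 0.505 per Mb. Over all 20 chromosomes the figure was 1.66 per Mb. By this measure chromosome X was below that value, at 1.10 per Mb, and chromosome 18 above it, at 2.54 per Mb, the reverse of their order by share.

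Remote recurrent regions were compact. Their median width was 835 bp (quartiles 713 and 1092 bp), against 949 bp in other recurrent regions and 1412 bp in constitutive ones. The difference from other recurrent regions was present at every number of calls, with medians of 780 and 851 bp at 7 calls and 907 and 1030 bp at 10 calls. It was also seen within libraries. The median summed peak length per region was shorter in remote than in other recurrent regions in 11 of 11 libraries. The medians were closest in shRNA-Ctrl E0 replicate 2 (525 and 526 bp) and farthest apart in shRNA-cFos E0 replicate 2 (717 and 801 bp). Peaks of different mice within a region had close midpoints, which the joining of overlapping peaks imposes in part. The SD over libraries of the midpoint of the best peak in a region had a median of 52.9 bp in remote recurrent regions and 61.3 bp in the others, and narrower regions leave midpoints less room. In 117 regions (8.39%) at least 1 library had 2 or more peaks.

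Scores were middling. The mean percentile over the libraries that called a region had a median of 43.8, against 42.1 in other recurrent regions and 77.1 in constitutive ones. The same scores decided which peaks were kept, so the gap to constitutive regions follows in part from the rule. In each library the remote recurrent regions had a median percentile of 42 to 53.6. That was above the median of other recurrent regions in 9 of 11 libraries, by 0.461 to 6.71 percentile points. In shRNA-Ctrl E0 replicate 3 and shRNA-Ctrl E1 replicate 3 the difference was -1.27 and -0.772 points. The widest margin was in shRNA-Ctrl E0 replicate 2 (53.6 against 46.9). Group means of these medians were 49.4 ± 3.94 (SD, n = 3) at E0 and 45.3 ± 2.90 (n = 3) at E1 with the control shRNA. With the shRNA against c-Fos they were 47.0 ± 2.84 (n = 3) at E0 and 46.6 ± 0.253 (n = 2) at E1. Distance made little difference, with a median of 43.5 at 250 to 500 kb, 43.7 at 500 to 1000 kb and 45.1 beyond.

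The 10 remote recurrent regions with the highest mean percentile each lacked a call in some library, as the rule requires. The mean covers only the libraries that called a region, and the rule does not set which ones those are. Of these 10, 9 were not called in shRNA-Ctrl E1 replicate 1, the longest list, where all 9 had a peak further down the full list. The highest, chr3:59848869-59849994, was 1126 bp wide and lay 454 kb from constitutive chromatin. Its percentiles were 99.6, 95.7 and 94.3 in shRNA-Ctrl E0, 98.8 and 98.4 in shRNA-cFos E0 replicates 1 and 3, 88.1 in shRNA-Ctrl E1 replicate 2, and 91.3 and 97.6 in shRNA-cFos E1. The 3 libraries without a call were the 3 with the longest lists.

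The next, chr12:75904721-75905635, had percentiles of 97.0, 80.9 and 78.6 in shRNA-Ctrl E0 (replicates 1 to 3), 76.2 and 76.6 in replicates 2 and 3 of shRNA-Ctrl E1, 97.2 and 97.4 in shRNA-cFos E0 replicates 1 and 3, and 85.0 and 93.5 in shRNA-cFos E1. It too was missing from shRNA-Ctrl E1 replicate 1 and shRNA-cFos E0 replicate 2. The exception among the 10 was chr1:26966316-26967979 (1664 bp), 1078 kb from constitutive chromatin. It reached 99.9, 99.3 and 99.2 in shRNA-Ctrl E1 and 98.1 and 96.4 in shRNA-cFos E1. In E0 it stood at 75.6 and 40.6 in shRNA-Ctrl replicates 2 and 3 and at 83.0, 82.0 and 82.7 in shRNA-cFos. Replicate 1 of shRNA-Ctrl E0 had no peak there, and since its list was used whole, the full list could add none. All 5 E1 values therefore lay above all 6 E0 libraries, although the region counts as called in nearly every library.

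Further regions of this set were chrX:8191015-8192182, chr5:80242108-80244002 and chr18:3004360-3006213. At chr5:80242108-80244002 the percentiles of the 2 long lists that called it were 19.2 in shRNA-Ctrl E1 replicate 3 and 33.3 in shRNA-cFos E0 replicate 2. The other 8 lists had it at 82.7 to 98.5. The remaining 4 of the 10 lay in the interval on chromosome X.

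Libraries differed in how many of the 1395 they called, and other recurrent regions showed nearly the same differences. With the control shRNA the share called was 71.6% ± 3.75 (SD, n = 3) at E0 and 76.4% ± 4.82 (n = 3) at E1. With the shRNA against c-Fos it was 80.1% ± 2.63 (n = 3) at E0 and 83.2% ± 2.89 (n = 2) at E1. By library, shRNA-Ctrl E0 replicates 1 to 3 called 67.2%, 73.8% and 73.7%. The shRNA-Ctrl E1 libraries called 73.6%, 73.5% and 81.9%, and only the last of them stood clear of its E0 group. In shRNA-cFos the shares were 81.2%, 81.9% and 77.1% at E0 and 85.2% and 81.1% at E1. E0 and E1 overlapped in both shRNA groups, while at E0 all shRNA-cFos shares lay above all shRNA-Ctrl shares. At E1 the shRNA groups overlapped, with 81.9% in shRNA-Ctrl replicate 3 and 81.1% in shRNA-cFos replicate 2.

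On average E1 libraries called 3.96 percentage points more than E0 libraries, which is about the pooled SD within groups of 3.72 points, and shRNA-cFos libraries 7.66 points more than shRNA-Ctrl libraries. In other recurrent regions these differences were 4.01 and 9.85 points, with an SD of 4.90. The E1 minus E0 value depended on the processing, with 0.218 points at a distance limit of 500 kb, 14.3 when a peak had to cover 50% of a region, 20.3 with full lists and 22.9 with a score of at least 100. The shRNA value was 17.2 points with 50% coverage and 13.5 with that score. Full lists and that score minimum undo the equal list lengths. At full length shRNA-Ctrl E1 lists held 35474 to 78349 peaks, against 25145 to 29519 in shRNA-Ctrl E0. Peak length differed as well. The median summed peak length per remote recurrent region was 403 to 560 bp in shRNA-Ctrl E0 and 538 to 602 bp in shRNA-Ctrl E1. In shRNA-cFos it was 500 to 717 bp at E0 and 682 and 620 bp at E1. Whether a peak covers 50% of a region depends on its length, and that setting selected another set of 4203 regions. The parts of list length and peak length in these values were not tested. No test was made of these shares, since the calls chose the regions. The share called in remote recurrent regions minus that in the others ran from -3.89 points in shRNA-cFos E1 replicate 2 to 6.46 points in shRNA-Ctrl E0 replicate 2, and was above 0 in 3 of 11 libraries.

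**Figure D2:**
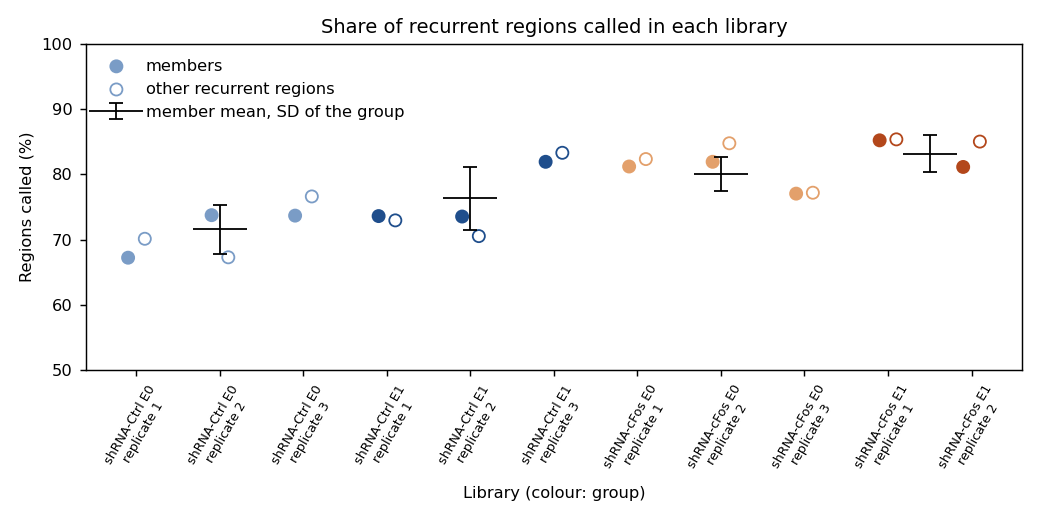
Percentage of regions called in each of 11 libraries (vertical axis, from 50%), for the 1395 remote recurrent regions (filled, labelled members) and the 7019 other recurrent regions (open), with black bars for the mean and SD of each group's filled points. The 2 kinds of region track each other, from 67.2% of remote recurrent regions in shRNA-Ctrl E0 replicate 1 to 85.2% in shRNA-cFos E1 replicate 1.

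Libraries differed in how often they alone lacked a region. Among the 376 remote recurrent regions called in 10 libraries, the missing call was that of shRNA-Ctrl E0 replicate 1 in 68 (18.1%) and of shRNA-Ctrl E1 replicate 1 in 53 (14.1%). At the other end it was that of shRNA-cFos E0 replicate 2 in 14 (3.72%). In other recurrent regions these 3 libraries made up 12.7%, 13.2% and 4.002%, and the most frequent were shRNA-Ctrl E1 replicate 2 (18.1%) and shRNA-Ctrl E0 replicate 2 (17.8%), so the order differed. All 4 groups were represented among the calls of 1193 regions (85.5%), against 88.2% of other recurrent regions. No shRNA-Ctrl E0 library called 66 (4.73%, against 4.03% of other recurrent regions), and no shRNA-Ctrl E1 library called 44 (3.15%, against 3.09%). For shRNA-cFos the counts were 17 at E0 (1.22%, against 1.10%) and 75 at E1 (5.38%, against 3.63%). All 5 E1 libraries called 547 regions (39.2%), and all 6 E0 libraries called 282 (20.2%). In other recurrent regions these shares were 38.0% and 22.2%.

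**Figure D3:**
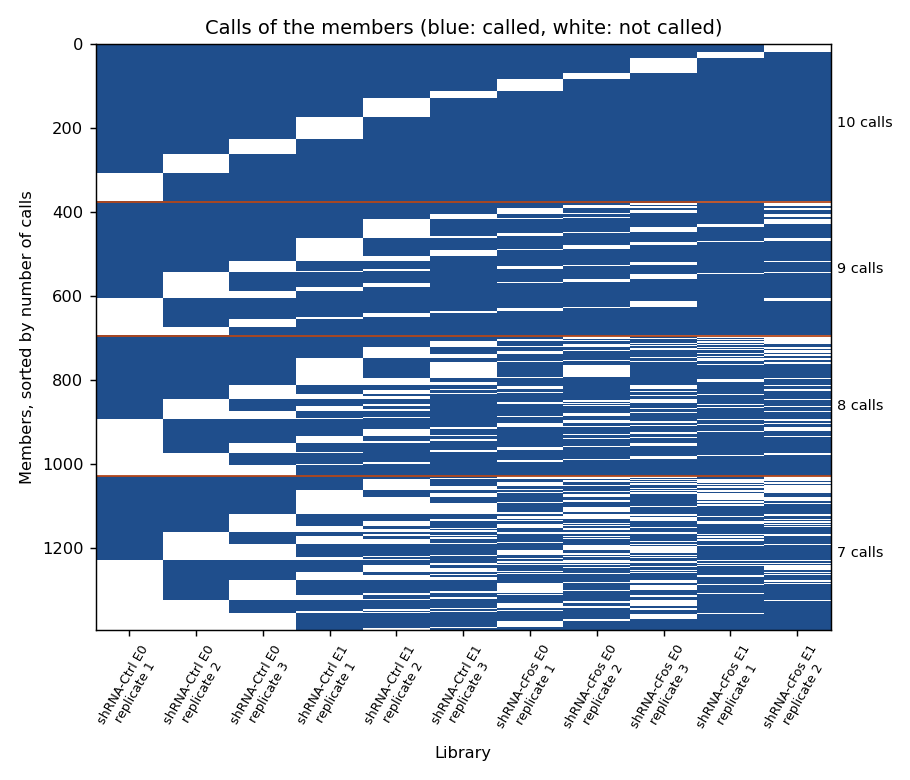
Calls of the 1395 remote recurrent regions (rows, sorted by number of calls) in 11 libraries (columns). Blue marks a call, and orange lines divide regions called in 10, 9, 8 and 7 libraries. Gaps are spread over all columns, most in shRNA-Ctrl E0 replicate 1.

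The first comparison was E1 against E0. Each of the 59298 regions was tested by a two-sided exact permutation test of its calls, with labels permuted within shRNA groups. After Benjamini-Hochberg adjustment over all regions this permutation test passed no remote recurrent region, where 0% of all regions passed, and the smallest adjusted p among them was 0.526. Of the 1395, 19 (1.36%) had an unadjusted permutation p under 0.05 with more calls in E0, against 0.713% of all regions and 1.52% of other recurrent regions. In the direction of E1 the count was 0 of 1395, against 3.09% of all regions (3.8% for both directions together). That contrast comes from the rule: of the 561 possible patterns of 7 to 10 calls, 5 reach such a p in the direction of E0 and 0 in the direction of E1. A region called in all 5 E1 libraries and at least 2 E0 libraries cannot go below p = 0.05 in this exact permutation test. The count of 19 was 0 without each of the 3 shRNA-cFos E0 libraries. It was 2 and 5 without shRNA-cFos E1 replicates 1 and 2, and 32, 32 and 38 without shRNA-Ctrl E1 replicates 1, 2 and 3.

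The 19 regions with more calls in E0 were called in all 6 E0 libraries and 1 E1 library each, 12 times in shRNA-Ctrl E1 and 7 times in shRNA-cFos E1. At chr3:61858048-61858828 (781 bp) the percentiles were 54.9, 62.3 and 57.3 in shRNA-Ctrl E0 and 61.2, 48.7 and 68.7 in shRNA-cFos E0. The only E1 library with a call was shRNA-Ctrl E1 replicate 1, at 43.1, below all 6. At chr17:62764460-62765094 the E0 libraries ran from 41.7 to 70.4, and the single E1 call, in shRNA-cFos E1 replicate 2, stood at 2.49. At chr5:62234951-62235622 they ran from 33.6 to 73.8, and shRNA-Ctrl E1 replicate 3 stood at 1.96.

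Most of these regions were not without a peak at E1. In the full deposited lists 15 of the 19 had a peak in shRNA-Ctrl E1 replicate 1, 7 in replicate 2 and 17 in replicate 3. In each shRNA-cFos E1 library 16 had one. These E1 lists held 35474 to 78349 peaks, against 25145 to 29519 in shRNA-Ctrl E0, so such a check can add more at E1. At chr13:75373714-75374328, in contrast, the full lists added no library to the 7.

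In the direction of E1, 44 regions stood at the smallest value that exact permutation allows there (unadjusted p = 0.05, adjusted p = 0.951). Their calls came from the 5 E1 libraries and 2 of the E0 libraries. In all, 99 remote recurrent regions (7.10%) had that number of calls in each state, against 5.88% of other recurrent regions. No share at p = 0.05 in this permutation test was computed over all regions or other recurrent regions, so the 44 are described and not compared. The highest-scoring was chr15:7442865-7443856 (992 bp), 362 kb from constitutive chromatin. Its percentiles were 90.9, 71.0 and 71.9 in shRNA-Ctrl E1 and 69.7 and 81.2 in shRNA-cFos E1. In E0 it was called at 48.8 and 53.4 in shRNA-Ctrl replicates 2 and 3 and in no shRNA-cFos library. The full lists held no further peak there, although that of shRNA-cFos E0 replicate 2 has 74432 peaks.

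At chr14:90502314-90503037 the E1 libraries stood at 82.9, 68.8, 83.1, 47.2 and 82.9. Among E0 libraries shRNA-cFos replicates 1 and 2 alone had a call, at 32.5 and 19.3. At chr16:81571554-81572567 the E1 values were 94.2, 56.0, 73.1, 70.9 and 79.9, and the same 2 E0 libraries stood at 9.60 and 25. The regions chr2:44519353-44520118 and chr7:47910241-47911256 likewise had no peak in any shRNA-Ctrl E0 list at full length. Those lists held 25145 to 29519 peaks, so full length adds few or none. As deposited, 43 of the 44 had a peak in shRNA-cFos E0 replicate 2 and 10 to 26 in the other E0 lists.

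Within shRNA groups, 58 remote recurrent regions (4.16%) were called in every shRNA-Ctrl E1 and no shRNA-Ctrl E0 library, against 3.51% of all regions. The opposite pattern held for 32 (2.29%), against 1.15%. In shRNA-cFos, 13 regions (0.932%, against 3.39%) were called in both E1 and no E0 library, and 48 (3.44%, against 1.54%) in every E0 and neither E1 library. No exact p under 0.1 exists for groups of this size, and no such region was tested alone. These shares depend on the rule as well, since a region absent from 1 group must be called in nearly all libraries of the others. Other recurrent regions, under the same restriction on calls, gave 3.43%, 2.09%, 0.983% and 2.29% for the 4 patterns.

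Of the 58 regions, both shRNA-cFos E1 libraries called 56, and the 3 shRNA-cFos E0 libraries all called 27. With at least 7 calls required, such a region must be called in 4 or more of the 5 shRNA-cFos libraries, so these counts follow largely from the rule. At chr3:61869255-61870079 the percentiles were 88.0, 70.5 and 86.0 in shRNA-Ctrl E1, 66.0, 76.0 and 72.5 in shRNA-cFos E0, and 81.6 and 68.9 in shRNA-cFos E1. In the full lists shRNA-Ctrl E0 replicate 2 added a peak. At chr10:38369583-38370404 and chr13:5227026-5228333 the shRNA-Ctrl E0 lists held none at full length, which adds few or no peaks to these short lists. The region at chr3:61869255-61870079 begins 10.4 kb past chr3:61858048-61858828, one of those with more calls in E0, and the pair differed in 7 of 11 libraries. Over the 41 pairs of remote recurrent regions within 10 kb of each other, the calls differed in a median of 3 libraries and agreed in all 11 for 4 pairs.

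The 32 regions with the opposite pattern included 8 from the interval on chromosome X. The highest-scoring, chr14:7469317-7470195, stood at 83.9, 85.4 and 73.4 in shRNA-Ctrl E0 and at 72.0, 27.3 and 72.1 in shRNA-cFos E0, and was called in both shRNA-cFos E1 libraries at 39.9 and 72.5. Each shRNA-Ctrl E1 library had a lower-scoring peak at 2 others, chr1:26742832-26745385 and chr1:98768018-98769344, once lists were taken at full length.

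The second comparison was the shRNA against c-Fos with the control shRNA. The same exact permutation test, with labels permuted within E0 and within E1, passed no region after adjustment (smallest adjusted p = 1, and 0% of all regions). Unadjusted, 5 remote recurrent regions (0.358%) had a permutation p under 0.05 with more calls in shRNA-Ctrl, against 0.108% of all regions and 0.342% of other recurrent regions. With more calls in shRNA-cFos there were 0, against 0.494% of all regions (0.602% for both directions together), and here too 0 of the 561 patterns could reach such a p. Leaving out 1 library at a time changed the count of 5 to 9, 15 and 12 for the 3 shRNA-Ctrl E0 libraries (replicates 1, 2 and 3). For those of shRNA-cFos E0 it was 15, 11 and 11. It was 0 when any 1 of the shRNA-Ctrl E1 libraries, or replicate 2 of shRNA-cFos E1, was left out.

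All 5 regions were called in the 6 shRNA-Ctrl libraries. The highest-scoring was chr5:39414226-39415241 (1016 bp), with percentiles of 56.7, 51.7 and 51.9 in the E0 libraries of shRNA-Ctrl and 78.0, 47.5 and 39.2 in its E1 libraries. In shRNA-cFos only E1 replicate 1 called it, at 74.3, which is above 5 of the 6 shRNA-Ctrl values. The full lists added a peak in shRNA-cFos E0 replicates 1 and 2 and in shRNA-cFos E1 replicate 2, which made 10 of 11 libraries. At full length each of the 5 regions gained a peak in at least 1 more shRNA-cFos library. The same pattern of calls held at chr13:116477465-116478211, chr9:10856180-10856931 and chr3:128660816-128661595. The last, chr18:71464375-71465179, was called among shRNA-cFos libraries in E0 replicate 2 alone, at 7.96.

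At E0, 35 remote recurrent regions (2.51%, against 0.96% of all regions) were called in every shRNA-cFos and no shRNA-Ctrl library, and 4 (0.287%, against 0.418%) showed the reverse. By the rule each of the 35 must be called in at least 4 of the 5 E1 libraries, and 25 were called in all 5. At E1, 37 (2.65%, against 1.7%) were called in both shRNA-cFos and no shRNA-Ctrl library. The reverse held for 25 (1.79%, against 1.08%). Other recurrent regions gave 1.98%, 0.413%, 2.15% and 1.35%. The comparisons of E0 with E1 and of the shRNA groups use the same libraries, so a region can be counted in several of them.

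A single interval on chromosome X held the most remote recurrent regions by count. Between the constitutive regions that bound chrX:120217907-126283829 (6066 kb) lay 39 of them (2.80% of all), where the next richest interval, chr2:62646120-65506163, held 10. Per Mb of sequence beyond 250 kb the X interval held 7.01, against 1.66 over all chromosomes. It was not the highest among the intervals richest by count, since chr8:24368359-26126747 held 7.15. The value was 6.32 in chr10:36861491-38627908 and 4.24 in the chromosome 2 interval. All but 1 of the 39 stood between positions 120509246 and 122848654, a span of 2339 kb, with a median gap of 28.9 kb between neighbours. They were wider than the rest, with a median of 1323 bp against 831 bp, and had a median mean percentile of 52.3 against 43.5. The widest of all 1395, chrX:121305697-121314910 (9214 bp), was among them.

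The 3 libraries with the longest lists called the fewest of these 39 regions. A stretch where some library calls few regions can hold few constitutive ones, so its recurrent regions become remote. The low count of shRNA-Ctrl E1 replicate 1 and the large number of remote regions here thus follow in part from the rule. All 39 were called in shRNA-Ctrl E0 replicates 1 and 3 and in shRNA-cFos E0 replicates 1 and 3, and 38 in shRNA-Ctrl E0 replicate 2. The shRNA-cFos E1 libraries called 37 and 38, and shRNA-Ctrl E1 replicate 2 called 30. In the 3 longest lists the numbers were 12 in shRNA-Ctrl E1 replicate 3, 12 in shRNA-cFos E0 replicate 2 and 1 in shRNA-Ctrl E1 replicate 1. Every shRNA-Ctrl E1 library thus lay below every shRNA-Ctrl E0 library. Among the 8 shorter lists shRNA-Ctrl E1 replicate 2, with 35474 peaks, called fewer than the shRNA-cFos E1 lists with 40627 and 48262. Most of the shorter lists stood near the maximum of 39, where a relation to length could not show. The part of list length in these differences was not tested. Of all 249 regions of the interval, shRNA-Ctrl E0 replicates 1 to 3 called 169, 107 and 80. Replicates 1 and 3 of shRNA-cFos E0 called 143 and 118, shRNA-Ctrl E1 replicate 2 called 51, and the shRNA-cFos E1 libraries 62 and 87. In the 3 longest lists the numbers were 5 in shRNA-Ctrl E1 replicate 1, 17 in its replicate 3 and 15 in shRNA-cFos E0 replicate 2.

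At chrX:122710971-122713533 (2563 bp) the percentiles were 92.4, 84.0 and 83.2 in shRNA-Ctrl E0, 97.1 and 91.8 in shRNA-cFos E0 replicates 1 and 3, 88.0 and 95.0 in shRNA-cFos E1, and 83.8 in shRNA-Ctrl E1 replicate 2. They were 59.2 and 43.3 in shRNA-Ctrl E1 replicate 3 and shRNA-cFos E0 replicate 2. The region chrX:122845740-122848654 ran from 79.0 to 96.0 in the 8 shorter lists and stood at 14.5 and 63.9 in the same 2 long ones. At full length the 3 longest lists held a peak in 14, 31 and 30 of the 39 regions, in the order shRNA-Ctrl E1 replicate 1, replicate 3 and shRNA-cFos E0 replicate 2. In each of the 8 shorter lists at least 33 had one.

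**Figure D4:**
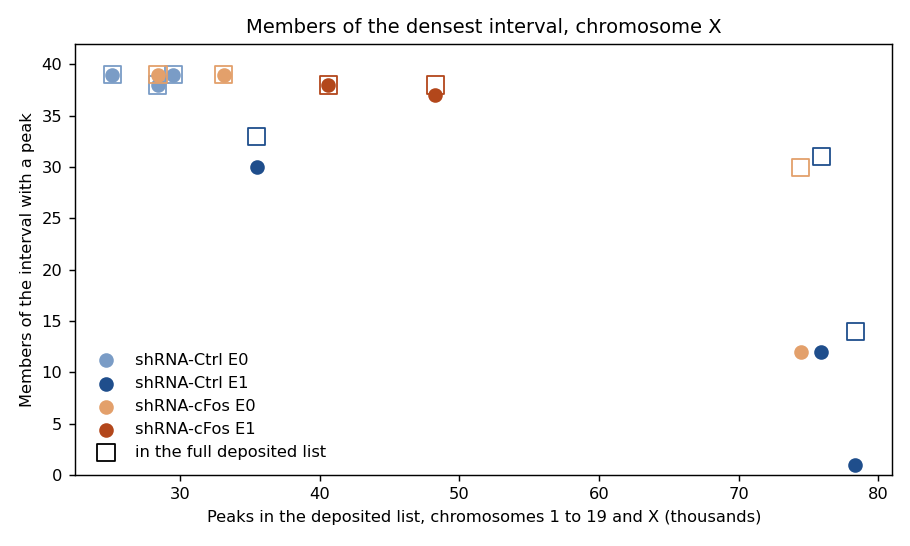
Number of the 39 remote recurrent regions of the interval on chromosome X that had a peak in each library (vertical axis), against the length of the deposited list (number of peaks, in units of 1000). Circles are lists shortened to 25145 peaks and squares full lists, coloured by group. Circles lie at 30 to 39 in the 8 shorter lists and at 1 to 12 in the 3 longest. The word densest in the title means most regions by count, not per Mb.

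Outside this interval, absence from all 3 longest lists was seen in 28 of 1356 remote recurrent regions (2.06%) and in 85 of 7019 other recurrent regions (1.21%), against 24 of the 39. A milder form occurred at chr5:14516275-15439439, where the 3 longest lists made 47.6% of possible calls of its 7 regions and the other 8 lists 94.6%. Of the 50 intervals with 5 or more of these regions, 35 were called more by the 3 longest lists than by the other 8. In chr2:62646120-65506163 they made 83.3% of possible calls and the others 76.2%, and each library called 6 to 10 of its 10 regions. In chr10:36861491-38627908, with 8 regions, the shares were 79.2% and 78.1%, and in chr2:94279002-97305852, also with 8, 83.3% and 76.6%. The 9 regions of chr8:24368359-26126747 were called at 70.4% and 75%.

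The regions beyond 1000 kb carried the mark of the X interval. Among all 113, shRNA-Ctrl E1 replicate 1 called 63.7% and shRNA-Ctrl E0 replicate 2 called 85.8%. Without the X interval the 94 that remained were called at 76.6% and 84.0%. The farthest 3 lay elsewhere on that chromosome. The first was chrX:86824220-86824728 (509 bp), 3801 kb from the nearest constitutive region, with percentiles of 74.1, 75.4 and 63.9 in shRNA-Ctrl E0. It stood at 40.5 to 68.8 in the 5 other libraries that called it, and again the 3 longest lists did not. The second, chrX:86598255-86598815, was called in all libraries but shRNA-Ctrl E0 replicate 3, at 11.7 to 62.8. The farthest on an autosome, chr17:60072353-60073223 (2684 kb), was called in all 5 E1 libraries, at 55.9 to 87.0, and in 3 of 6 E0 libraries, at 12.5 to 60.8. The 3 other E0 libraries had no peak there at full list length, but their lists are short, with 25145 to 29519 peaks.

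Apart from the X interval, the widest remote recurrent regions lay on chromosome 5, at chr5:58105771-58111504 (5734 bp), chr5:15004096-15009827 (5732 bp) and chr5:15183538-15187865 (4328 bp). The last 2 belong to the interval of 7 regions given above. At chr5:15004096-15009827 the percentile was 34.4 to 75.5 in shRNA-Ctrl E0 and 0.167 in shRNA-cFos E0 replicate 2.

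Many calls missing at equal list length were present lower in the deposited lists, a part of the data that the rule did not use. The 1395 regions had 3482 missing calls over the 11 libraries, and for 1554 of them (44.6%) the full list held a lower-scoring peak. In other recurrent regions the share was 46.8%. It followed list length by construction: the shortest list is used whole and can add none, while shRNA-Ctrl E1 replicate 3 and shRNA-cFos E0 replicate 2 held 91.7% and 92.5% of their missing regions. shRNA-Ctrl E1 replicate 1, although its list is the longest, held 83.2%, against 93.6% for other recurrent regions. Part of its missing regions lay in the X interval, where it called 1 of 39 and at full length held 14. Lists with 28391 to 29519 peaks held 14.2% to 18.5%.

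At full length 310 of the 1395 (22.2%) had a peak in every library, against 24.2% of other recurrent regions. Among those called in 10 libraries it was 46.3%, and among those called in 7 it was 5.72%. Another 513 had a peak in 10 libraries and 47 in no more than their original 7. The shRNA-Ctrl E0 lists, the shortest group, still lacked most: at full length they held 67.2%, 77.5% and 78.6% of the regions, and shRNA-cFos E1 lists 97.7% and 93.3%. Since lists differ 3.12-fold in length, these values do not compare the groups.

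**Figure D5:**
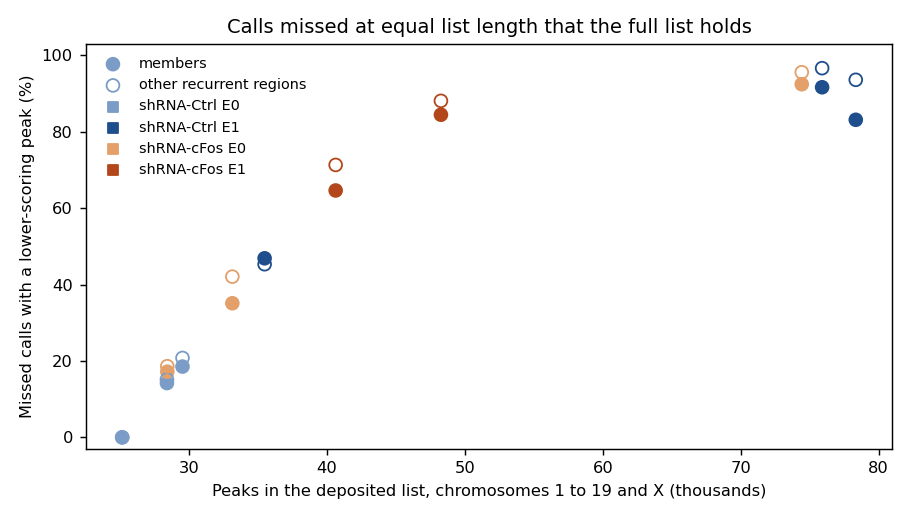
Percentage of calls missing at equal list length for which the full deposited list held a lower-scoring peak (vertical axis), against list length (number of peaks, in units of 1000), for remote recurrent regions (filled, labelled members) and other recurrent regions (open), coloured by group. For remote recurrent regions the share goes from 0 in the shortest list to 92.5% in shRNA-cFos E0 replicate 2.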

How the data were processed

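ATAC-seq peak lists of 11 libraries from mouse dentate gyrus were used, 1 list per library. Reads were aligned with Bowtie2 to mm9, per the submitters' processing notes, and the deposited peak names carry the name of the caller MACS. The sources used here do not state its settings or any read filter. Each deposited score lies between 50 and 3100 on a scale that is not stated. Scores served to rank the peaks of 1 list and, in 1 alternative, as a minimum of 100. Peaks on chromosome Y were left out.

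Lists were shortened to 25145 peaks (ties in file order), merged and called as the report states. Calls were tested by exact permutation over 200 label arrangements, with Benjamini-Hochberg adjustment over 59298 regions. The regions and lists were chosen with earlier results of these data known. Named regions are the 10 with the highest mean percentile, the 5 farthest, the 5 widest, the 5 intervals with most members, up to 10 per direction with the smallest p, up to 5 per direction that separate 2 groups, and 2 on either side of the distance limit. Not all of them are described. The X interval, the 3 longest lists, the 44 regions, the 5 regions of the shRNA test, the chromosome 5 interval and the pairs within 10 kb were singled out after their values were seen.

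Deviations of libraries with the same replicate number were little correlated: over 15 pairs the correlation ran from -0.0316 to 0.0505, none above 0.1. Over 30 pairs with different numbers it ran from -0.0473 to 0.02655. The 2 shRNA-cFos E1 libraries gave values of equal size and opposite sign in their pairs, so not all pairs are independent. Merging, membership and the test were tested on simulated lists. The gene and motif comparisons planned for an mm9 annotation and sequence were not run, since the reference at hand was of another build. Python 3.11.15, numpy 2.4.6, pandas 2.3.3 and matplotlib 3.10.9 were used.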

Additional observations from a re-analysis of the deposited data

How the results depend on the processing

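The number of remote recurrent regions was 3307 at a distance of 100 kb and 496 at 500 kb, as the rule implies, and 4203 when a peak had to cover 50% of a region. It was 1839 with full lists, 1149 with 15000 peaks, and 1014 to 1128 with a library left out and 7 to 9 of 10 calls. The E1 minus E0 share (3.96 points) was 0.218 at 500 kb, 14.3 with 50% coverage, 20.3 with full lists and 22.9 with a score of at least 100. It kept its sign in all 22 alternatives, from 2.57 to 4.98 without 1 library. Full lists and the score minimum do not hold list length equal, so their larger values cannot be told apart from list length. Calls at 50% coverage depend on peak length, which differed between libraries. Its part in the larger values at that setting was not tested. The shRNA-cFos minus shRNA-Ctrl share (7.66 points) was 17.2 with 50% coverage, 13.5 with the score minimum and 6.58 to 9.06 without 1 library. With the replicate number as a block the E1 minus E0 share was 3.21 points and the count of 19 regions became 0, since the smallest exact p over those 32 arrangements was 0.125.

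The 19 regions became 51 at 100 kb, 8 at 500 kb, 0 with 8 to 10 calls, 3 with full lists and 3 with the score minimum, and 0 to 38 without 1 library. The 5 regions became 13, 3, 0 and 2 under the first 4 of these and 0 to 15 without 1 library. Both counts depend on which patterns can reach the threshold. The share of missing calls held by full lists (44.6%) was 14.9% with 50% coverage and 40.1% to 51.4% without 1 library. Alternatives added after seeing the data left out the X interval, which gave 4.70 and 7.35 points and again 19 and 5 regions, or the 3 longest lists, which gave 3.02 and 8.61 points, 20 and 5 regions and 30.04% of missing calls. Read depth is unknown, so a missing peak is not evidence of closed chromatin.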
